A study of Mus musculus with 21 samples.

Results

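8 transcripts of the lysosome were followed across the 7 groups of a study of complement inhibition after traumatic brain injury (TBI) in mice: the cathepsins Ctss, Ctsf and Ctse, the endopeptidase Lgmn, the glycosidase Man2b1, the membrane proteins Lamp1 and Lamp2, and Grn. The members were chosen by gene symbol, as the rows of the deposited table whose probe is paired with 1 of these 8 names, and all 8 were found among 703 named probes of 757. All 8 passed the filter on low values that left 740 probes for testing. RNA of the right, injured hemisphere of 21 male C57BL6J mice was counted with the NanoString nCounter Mouse Neuroinflammation panel, which counts transcripts by hybridization to color-coded probes without amplification. Injury was an open-head controlled cortical impact, in which a piston strikes the exposed cortex. There were 3 mice per group. Mice of the CR2-Crry TBI groups received 16 mg/kg of CR2-Crry into a vein after the injury. CR2-Crry is a fusion of a complement receptor 2 fragment, which binds C3 activation products deposited in injured tissue, with the mouse complement inhibitor Crry. The CR2-Crry TBI mice were studied on day 3 (aged 12 weeks), day 7 (13 weeks) and day 28 (16 weeks). PBS TBI mice received the vehicle PBS and were studied on the same days at the same ages. In both treatments the day 28 groups received further intraperitoneal doses, so that dosing and day cannot be told apart on day 28. Sham mice were aged 12, 13 and 16 weeks, 1 mouse of each age, and underwent anesthesia and scalp incision with no craniotomy, so that the opening of the skull and the impact cannot be told apart in a comparison with sham. No sham mice treated with CR2-Crry were measured.

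Lysosomes are acidic organelles that degrade proteins, glycans, lipids and engulfed material. Cathepsins are their main proteases, glycosidases trim sugars from glycoproteins, and heavily glycosylated membrane proteins such as LAMP1 and LAMP2 line the organelle. In the brain these genes are active in many cell types and are high in microglia and macrophages, which clear debris after injury. A transcript level says nothing by itself about enzyme activity, since cathepsins and legumain are made as inactive precursors.

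The tissue label was checked against marker genes. The 11 neuronal markers tested summed to at least 45421 normalized counts in every sample. The lowest single value was 345 for a neuronal, 882 for an astrocyte, 599 for an oligodendrocyte and 224 for a microglial marker. No probe was at 0 in any sample, the lowest value being 2.14, so a value above 0 does not by itself identify a tissue. Each sample held between 750585 and 1023041 counted units, and no 2 samples of a group were identical. The value of 1 counted unit after the authors' scaling was 0.786 to 0.874 normalized counts in sham samples and 0.959 to 1.25 in injured samples, so the scaling to housekeeping genes raised injured samples relative to sham. Centring each sample on its median log2 value instead moved every change against sham down, by 0.65, 0.56 and 0.33 on the log2 scale for CR2-Crry TBI on days 3, 7 and 28 and by 0.60, 0.73 and 0.34 for PBS TBI. Changes are given on the authors' scale, and a passing change whose direction turns under centring is named beside it. The samples are bulk tissue, in which more cells of a type and more RNA per cell cannot be told apart. The labels give 1 mouse per sample, and with 3 mice per group the spread between mice is known only roughly.

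Promoter sequences of RefSeq (build GRCm38.p6, from 250 bases before to 50 after each start) were matched to 7 of the 8 members by symbol, with 2 starts for Lgmn. They are shown because lysosomal genes are known to share an E-box read by the transcription factor TFEB, and because most members were higher than in sham. The letters searched on both strands were CACGTG, the E-box core, and TCACGTGA, the longer core of that site, which contains the first. The CACGTG letters were found in the promoters of 3 members (Ctsf, Lgmn at 1 of its 2 starts, and Lamp1), against 7.15% of 32851 promoters, and TCACGTGA was found in 0 members, against 0.974%. The promoter of Lamp1 held CACGTG 4 times, starting 61, 45, 28 and 15 bases before the start, and 8 of the 32851 promoters held it at least 4 times. That of Ctsf held it 79 bases before the start and the second Lgmn start 49 bases before. The letters GAAA, any 2 bases and GAAA again, a spacing known from interferon response elements, were added after the Ctss sequence was seen. The match in Ctss (21 bases before the start) was thus in view when they were chosen, and cannot be set against a background. Lamp1 also held them (135 before), as did 3.44% of promoters. A match of letters is a description and not a bound site. The promoters of Lamp1, Ctsf and Ctss, of which Lamp1 holds the most matches and Ctsf and Ctss are the members with the smallest and the largest day 7 change against sham, are printed 5′ to 3′, with CACGTG and the paired GAAA with its gap, read on either strand, in capitals.
Lamp1 (chr8:13158911-13159210, plus strand): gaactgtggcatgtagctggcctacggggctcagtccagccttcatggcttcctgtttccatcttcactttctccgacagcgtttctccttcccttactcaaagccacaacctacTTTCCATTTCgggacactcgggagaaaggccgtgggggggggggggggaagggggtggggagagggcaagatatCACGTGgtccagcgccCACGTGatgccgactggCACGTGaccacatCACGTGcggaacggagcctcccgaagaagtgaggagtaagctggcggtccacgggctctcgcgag
Ctsf (chr19:4854915-4855214, plus strand): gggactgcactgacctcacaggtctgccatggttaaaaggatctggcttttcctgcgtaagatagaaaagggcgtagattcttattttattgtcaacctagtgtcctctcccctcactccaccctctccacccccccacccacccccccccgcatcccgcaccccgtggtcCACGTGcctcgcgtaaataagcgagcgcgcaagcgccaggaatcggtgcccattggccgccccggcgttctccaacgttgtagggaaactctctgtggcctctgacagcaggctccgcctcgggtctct
Ctss (chr3:95526536-95526835, plus strand): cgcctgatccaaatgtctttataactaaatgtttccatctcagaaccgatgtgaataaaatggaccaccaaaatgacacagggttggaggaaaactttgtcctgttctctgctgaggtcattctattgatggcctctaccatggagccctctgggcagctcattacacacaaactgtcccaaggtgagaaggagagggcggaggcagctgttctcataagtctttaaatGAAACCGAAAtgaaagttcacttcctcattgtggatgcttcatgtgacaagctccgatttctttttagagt

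**Figure D1:**
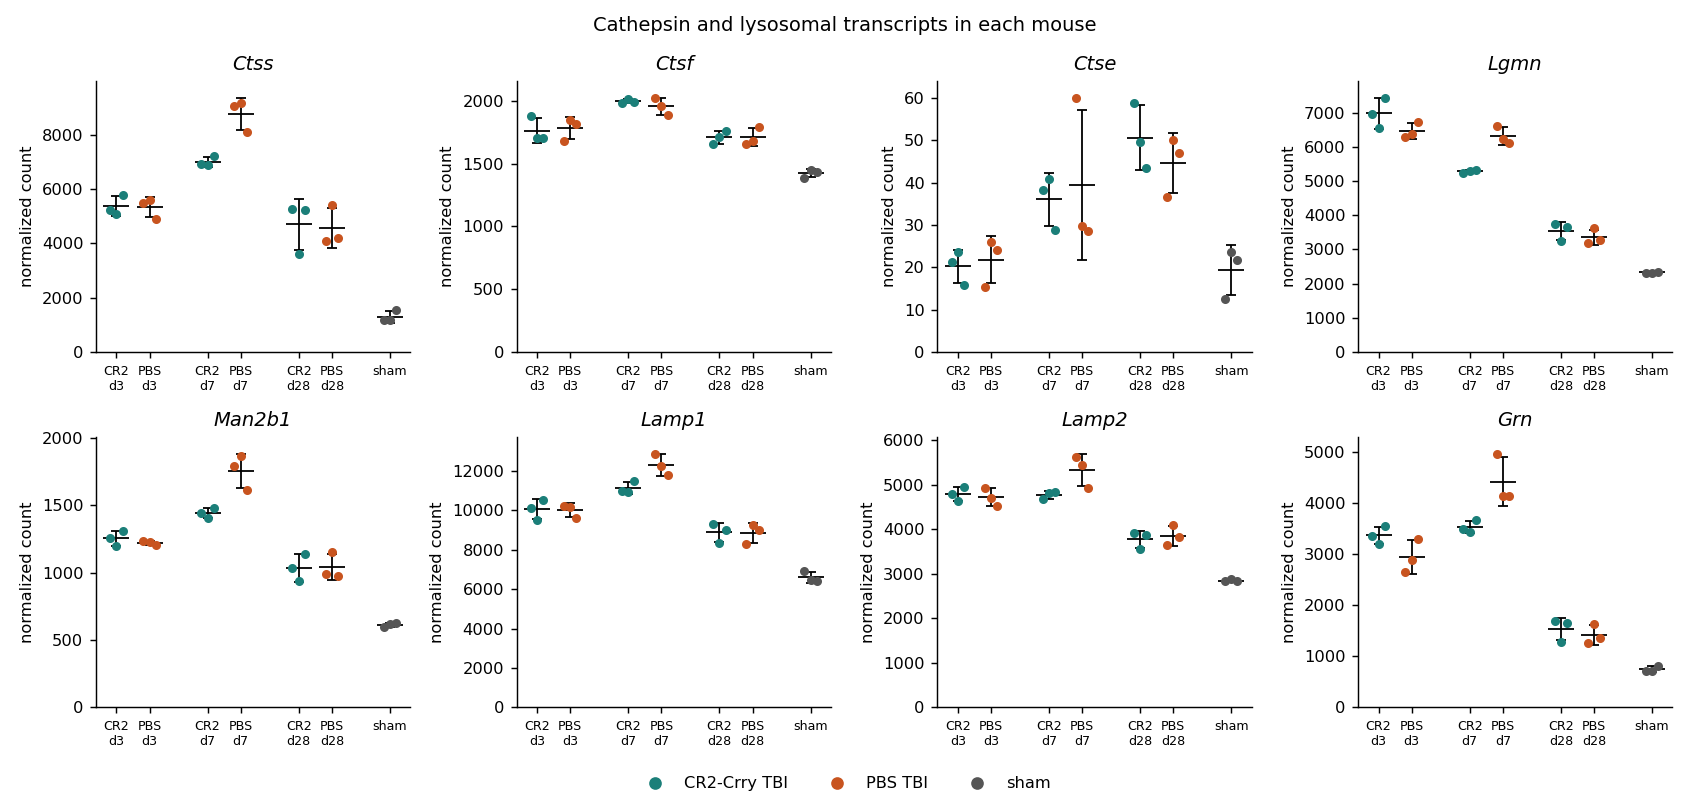
Normalized counts (y axis, linear, from 0) of the 8 members in every mouse, in 7 groups of 3 mice (CR2 = CR2-Crry TBI, PBS = PBS TBI, d = day); points are mice, the horizontal line is the group mean and the bars are the SD. All members but Ctse had every injured mouse above every sham mouse, and PBS TBI day 7 had the highest mean for Ctss, Man2b1, Lamp1, Lamp2 and Grn. The share of all genes separated from sham in this way was not counted.

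Ctss, which encodes cathepsin S, a protease of microglia and antigen-presenting cells that trims the MHC class II invariant chain and stays active at neutral pH, had the largest change of the members against sham in 5 of the 6 comparisons, and Grn had it in CR2-Crry TBI on day 3. CR2-Crry TBI mice had 5224, 5098 and 5788 normalized counts on day 3, 6914, 6878 and 7214 on day 7 and 5252, 3616 and 5223 on day 28. PBS TBI mice had 5490.4, 5599 and 4905 on day 3, 9068, 9156 and 8103 on day 7 and 4093, 5399.9 and 4196 on day 28. Sham mice had 1159.6, 1166 and 1535. The lowest injured mouse (3616, CR2-Crry TBI day 28) lay far above the highest sham mouse (1535). The log2 changes against sham were 2.07 ± 0.13 (adjusted p = 7.44e-11), 2.46 ± 0.13 (adjusted p = 1.05e-11) and 1.86 ± 0.13 (adjusted p = 1.42e-09) for CR2-Crry TBI on days 3, 7 and 28, where the error is the SE of the fit. For PBS TBI they were 2.06 ± 0.13 (adjusted p = 8.28e-11), 2.78 ± 0.13 (adjusted p = 1.01e-12) and 1.83 ± 0.13 (adjusted p = 2.23e-09), the second of which is 6.87-fold. The sham mouse aged 16 weeks held the highest of the 3 sham values, and against that mouse alone, of the same age, the day 28 changes were 1.59 for CR2-Crry TBI and 1.56 for PBS TBI.

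Ctsf, cathepsin F, a papain-family protease expressed in neurons among other cells and linked to neuronal ceroid lipofuscinosis in humans, had the smallest change of the members against sham on days 7 and 28. CR2-Crry TBI mice had 1878, 1709 and 1709 normalized counts on day 3, 1985, 2016 and 1992 on day 7 and 1656, 1714 and 1760.3 on day 28. The PBS TBI mice measured 1683, 1847 and 1818 on day 3, 2023, 1961 and 1888 on day 7 and 1659.5, 1686 and 1791 on day 28. Sham mice had 1386, 1452 and 1438. Ctsf was higher than in sham in all 6 comparisons, by log2 changes of 0.26 to 0.49 (adjusted p = 0.000133 at most), but each of these turned negative after median-centring, to between -0.34 and -0.067. Its largest increase was 1.4-fold, for CR2-Crry TBI on day 7. The increase on each day was smaller than the shift that centring makes on that day.

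Ctse encodes cathepsin E, an endosomal aspartic protease that unlike cathepsins S and F is not of the papain family, and it was counted at only 15 to 58 units per sample, against at least 707 for each other member, so that its values carry the largest counting error. CR2-Crry TBI mice had 21.3, 23.5 and 15.7 normalized counts on day 3, 38.3, 40.9 and 28.9 on day 7 and 58.7, 49.7 and 43.5 on day 28. The values in PBS TBI mice were 15.4, 25.9 and 24.1 on day 3, 60, 29.9 and 28.6 on day 7 and 36.5, 50.1 and 47 on day 28. Sham mice had 12.6, 23.6 and 21.8. The day 3 groups overlapped sham, while on day 7 and day 28 every injured mouse lay above every sham mouse. Against sham the log2 changes on days 3, 7 and 28 were 0.095 ± 0.30 (adjusted p = 0.801), 0.93 ± 0.30 (adjusted p = 0.0109) and 1.43 ± 0.30 (adjusted p = 0.000513) in CR2-Crry TBI. In PBS TBI they were 0.19 ± 0.30 (adjusted p = 0.592), 1.00 ± 0.30 (adjusted p = 0.00631) and 1.24 ± 0.30 (adjusted p = 0.0019). After median-centring the day 3 changes were -0.55 and -0.41, neither passing, and the day 7 calls were lost, at 0.37 in CR2-Crry TBI (adjusted p = 0.246) and 0.27 in PBS TBI (adjusted p = 0.406). Ctse was the one member whose mean was highest on day 28, in both treatments. The day 7 calls also rested on single mice. Without the first sham mouse the changes were 0.65 for CR2-Crry TBI (adjusted p = 0.0821) and 0.71 for PBS TBI (adjusted p = 0.0502), and without the first PBS TBI mouse of day 7 the PBS TBI change was 0.65 (adjusted p = 0.0579). Against the sham mouse of the same age alone, an alternative chosen after the data were seen, the calls of CR2-Crry TBI on day 7 (0.59, adjusted p = 0.253) and of PBS TBI on day 7 (0.65, adjusted p = 0.179) and day 28 (1.02, adjusted p = 0.0554) were lost.

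Lgmn encodes legumain, an asparaginyl endopeptidase that cleaves cathepsins into their mature chains. CR2-Crry TBI mice had 6961, 6540.3 and 7431 normalized counts on day 3, 5239.5, 5286 and 5329 on day 7 and 3747, 3249.6 and 3647 on day 28. In PBS TBI the mice had 6289, 6365 and 6731 on day 3, 6624, 6217 and 6111 on day 7 and 3199, 3611 and 3261 on day 28. Sham mice had 2323, 2310.2 and 2341. The sham mice differed by little, and Lgmn was the one member whose mean was highest on day 3 in both treatments, although the PBS TBI mice of days 3 and 7 overlapped. The log2 changes against sham on days 3, 7 and 28 were 1.58 ± 0.057 (adjusted p = 4.67e-14), 1.18 ± 0.057 (adjusted p = 3.46e-12) and 0.61 ± 0.057 (adjusted p = 5.43e-08) in CR2-Crry TBI and 1.47 ± 0.057 (adjusted p = 1.68e-13), 1.44 ± 0.057 (adjusted p = 1.99e-13) and 0.53 ± 0.057 (adjusted p = 3.51e-07) in PBS TBI.

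Man2b1 encodes the lysosomal alpha-mannosidase, which removes mannose from glycoproteins and whose loss causes alpha-mannosidosis. CR2-Crry TBI mice had 1261, 1198 and 1309 normalized counts on day 3, 1442, 1405 and 1479 on day 7 and 1035, 935 and 1142 on day 28. Values in PBS TBI were 1232, 1227 and 1202 on day 3, 1790.3, 1864 and 1612 on day 7 and 989, 1151 and 979 on day 28. Sham mice had 596, 618 and 624. The lowest injured mouse, at 935, was above the highest sham mouse, at 624. Man2b1 rose against sham by 1.03 ± 0.071 (adjusted p = 2.3e-10), 1.23 ± 0.071 (adjusted p = 2.47e-11) and 0.75 ± 0.071 (adjusted p = 5.87e-08) in CR2-Crry TBI on days 3, 7 and 28. In PBS TBI the increases were 0.99 ± 0.071 (adjusted p = 4.17e-10), 1.52 ± 0.071 (adjusted p = 9.61e-13) and 0.76 ± 0.071 (adjusted p = 6.03e-08).

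Lamp1 and Lamp2 encode the 2 main membrane glycoproteins of the lysosome, and LAMP2 also takes part in chaperone-mediated autophagy and in the fusion of autophagosomes. For Lamp1, CR2-Crry TBI mice had 10098, 9523 and 10519 normalized counts on day 3, 10959.8, 10926 and 11500.1 on day 7 and 9308, 8317 and 8985 on day 28. PBS TBI mice had 10213, 10184 and 9583 on day 3, 12874, 12235 and 11786 on day 7 and 8285, 9233 and 8999 on day 28, and sham mice had 6925, 6457 and 6418. Lamp1 rose on every day by log2 changes of 0.61 ± 0.053, 0.75 ± 0.053 and 0.43 ± 0.053 in CR2-Crry TBI and 0.60 ± 0.053, 0.90 ± 0.053 and 0.42 ± 0.053 in PBS TBI (adjusted p = 2.23e-06 at most), and on day 3 both changes turned slightly negative after median-centring (-0.039 and -0.0032). For Lamp2, CR2-Crry TBI mice had 4787, 4637 and 4941 normalized counts on day 3, 4679, 4813 and 4844 on day 7 and 3911, 3559.7 and 3865 on day 28. PBS TBI mice had 4931, 4706 and 4519.9 on day 3, 5631, 5454 and 4933 on day 7 and 3642, 4092 and 3836 on day 28, and sham mice had 2830.3, 2877 and 2833. The increases of Lamp2 were 0.75 ± 0.053, 0.75 ± 0.053 and 0.41 ± 0.053 in CR2-Crry TBI and 0.73 ± 0.053, 0.91 ± 0.053 and 0.44 ± 0.053 in PBS TBI (adjusted p = 2.6e-06 at most). After centring Lamp2 was at only 0.078 to 0.19, still positive, and passed in 3 of the 6 comparisons, the calls of CR2-Crry TBI on days 3 and 28 (adjusted p = 0.0638 and 0.182) and of PBS TBI on day 28 (adjusted p = 0.108) being lost. Lamp1 passed after centring on day 7 alone, at 0.19 in CR2-Crry TBI and 0.17 in PBS TBI.

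Grn encodes progranulin, a secreted and lysosomal glycoprotein made by microglia and neurons, whose loss causes frontotemporal dementia or neuronal ceroid lipofuscinosis in humans. CR2-Crry TBI mice had 3361, 3211 and 3551 normalized counts on day 3, 3497, 3442 and 3679.8 on day 7 and 1686, 1289 and 1650.5 on day 28. In PBS TBI the values were 2648, 2888 and 3299.7 on day 3, 4979.9, 4153 and 4148 on day 7 and 1257, 1640.3 and 1362 on day 28. Sham mice had 720.1, 707 and 816. On days 3 and 7 every injured mouse lay at 2648 normalized counts or more, while on day 28 all 6 lay between 1257 and 1686. Against sham, Grn rose by 2.18 ± 0.11 (adjusted p = 4.27e-12), 2.25 ± 0.11 (adjusted p = 3.6e-12) and 1.04 ± 0.11 (adjusted p = 2.84e-07) in CR2-Crry TBI on days 3, 7 and 28. In PBS TBI it rose by 1.97 ± 0.11 (adjusted p = 1.2e-11), 2.56 ± 0.11 (adjusted p = 3.42e-13), which is 5.91-fold, and 0.92 ± 0.11 (adjusted p = 1.16e-06).

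**Figure D2:**
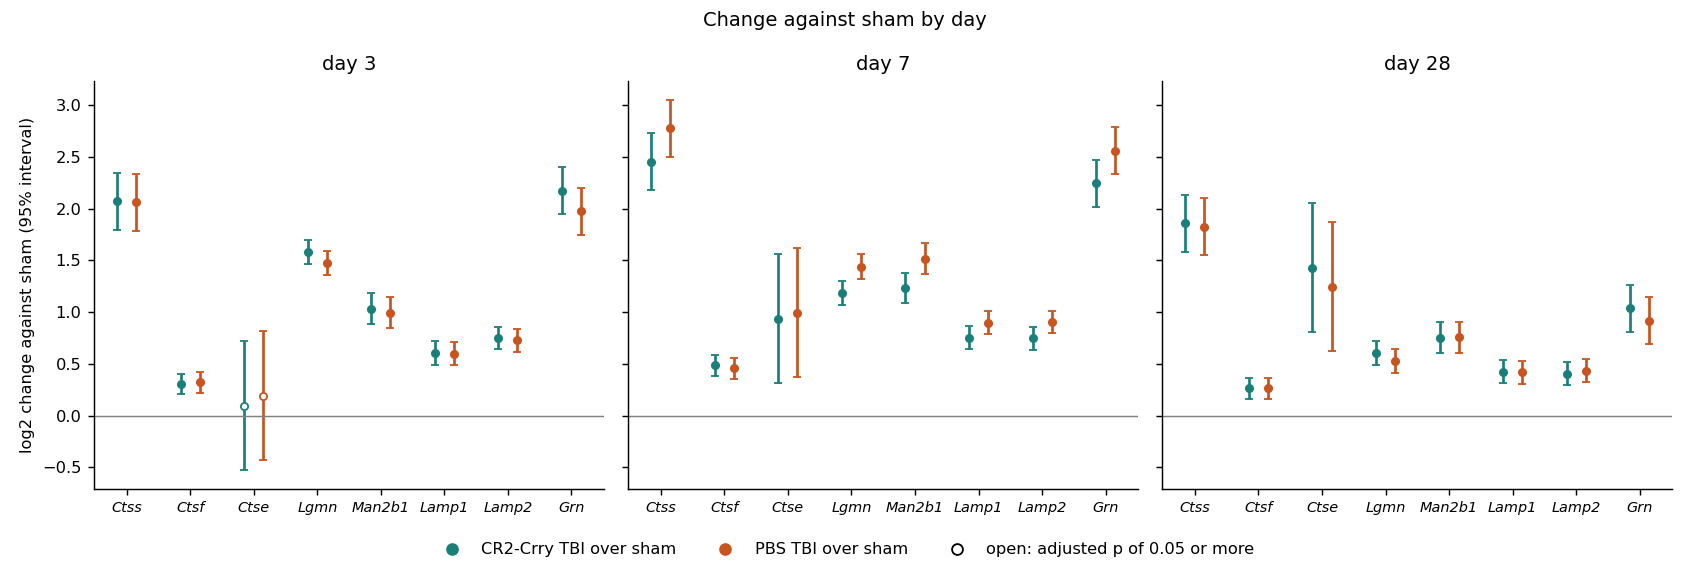
Log2 change against sham (y axis) of each member on days 3, 7 and 28, for CR2-Crry TBI and PBS TBI (3 mice against 3 sham mice each); bars are 95% intervals of the limma fit and open points had an adjusted p of 0.05 or more. Ctss and Grn lie highest on days 3 and 7, Ctsf lies at 0.26 to 0.49 throughout and turns negative after median-centring, as Lamp1 does on day 3, and only Ctse on day 3 is open.

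Counted together, 7, 8 and 8 of the 8 members were higher than in sham in CR2-Crry TBI on days 3, 7 and 28, and the same counts held for PBS TBI. These shares stand against a broad background. Of the 740 tested genes, 64.9% passed in either direction and 53% were higher in CR2-Crry TBI on day 3, 58.2% and 48% on day 7, and 54.6% and 44.3% on day 28. In PBS TBI 64.9% passed and 51.6% were higher on day 3, 66.8% and 57.3% on day 7, and 52.6% and 44.5% on day 28. The median log2 change of the members was 0.89, 1.06 and 0.68 in CR2-Crry TBI, beside 0.30, 0.24 and 0.21 over all tested genes, and 0.86, 1.22 and 0.64 in PBS TBI, beside 0.30, 0.36 and 0.21. After median-centring 4 members were higher and 1 (Ctsf) lower on day 3, 6 and 0 on day 7, and 5 and 0 on day 28 in CR2-Crry TBI, and 5 and 1, 6 and 1, and 5 and 0 in PBS TBI, with Ctsf again the lower one. Over all genes centring turned the split of higher and lower calls to 181 and 393, 172 and 385, and 172 and 295 in CR2-Crry TBI, where it had been 392 and 88, 355 and 76, and 328 and 76. In PBS TBI the centred split was 196 and 387, 192 and 403, and 157 and 281, where it had been 382 and 98, 424 and 70, and 329 and 60. All 6 comparisons share the same 3 sham mice.

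Cell type markers moved with these increases. All 10 tested microglial markers of 14 listed were higher than in sham in all 6 comparisons, and their summed level was 15897 to 17910 normalized counts in CR2-Crry TBI on day 3, 16589 to 17521 on day 7 and 9070 to 11454 on day 28. In PBS TBI it was 16311 to 17575, 19527 to 23865 and 9707 to 11492, against 4650 to 5006 in sham. The 4 tested monocyte and macrophage markers (Ccr2, Cd14, Cd163 and Msr1) summed to 690 to 924, 363 to 464 and 300.2 to 378 in CR2-Crry TBI, to 785 to 951, 629 to 693 and 303 to 381 in PBS TBI, and to 143 to 269 in sham. Neuronal markers were lower than in sham, 7 of 11 passing in 5 of the 6 comparisons and 8 in CR2-Crry TBI on day 28. Markers of other cells moved as well. The 4 tested astrocyte markers were all higher than in sham on days 3 and 7 and 3 of them on day 28, in both treatments. After median-centring 1, 2 and 1 of them were higher and 1, 0 and 1 lower in CR2-Crry TBI on days 3, 7 and 28. In PBS TBI 2, 1 and 1 were then higher and 1, 2 and 1 lower. Of 9 listed neutrophil markers 1 was tested, and it was higher in all 6 comparisons. It had 64.7 to 93.8 normalized counts in sham, and 1 gene does not show a change in neutrophils. Of 5 oligodendrocyte markers, 3, 5 and 1 were higher in CR2-Crry TBI on days 3, 7 and 28 and 3, 4 and 2 in PBS TBI. After median-centring 0 were higher in any, while 2, 0 and 3 were lower in CR2-Crry TBI and 2, 4 and 3 in PBS TBI. Of 6 endothelial markers, 4, 2 and 1 were higher on days 3, 7 and 28 in both treatments, and 1 was lower on day 3. After centring 0, 0 and 1 of these 6 were higher and 2, 4 and 3 lower in CR2-Crry TBI. In PBS TBI 1, 0 and 0 were then higher and 2, 4 and 2 lower. The part of cell numbers in the members' changes was not tested.

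Between days, the members separated by when they were highest. On day 7 compared with day 3 in PBS TBI, 6 members were higher (25.1% of all genes passed and 18.5% were higher). The rises were 0.72 ± 0.13 (adjusted p = 0.000591) for Ctss, 0.59 ± 0.11 (adjusted p = 0.000696) for Grn, 0.52 ± 0.071 (adjusted p = 2.61e-05) for Man2b1, 0.30 ± 0.053 (adjusted p = 0.000449) for Lamp1, 0.18 ± 0.053 (adjusted p = 0.0196) for Lamp2 and 0.14 ± 0.048 (adjusted p = 0.0442) for Ctsf. After median-centring the calls of Lamp2 (0.05, adjusted p = 0.531) and Ctsf (0.0086, adjusted p = 0.950) were lost. Ctse at 0.80 ± 0.30 (adjusted p = 0.055) and Lgmn at -0.033 ± 0.057 (adjusted p = 0.703) did not pass. The calls of Ctsf and Lamp2 also depended on single mice. Ctsf was lost without the first or the third PBS TBI mouse of day 3 or the first or second of day 7 (0.095 to 0.15, adjusted p = 0.0554 to 0.208), and Lamp2 without the second or the third mouse of day 3 or the first or second of day 7 (adjusted p = 0.053 to 0.0961). Ctse passed without the third PBS TBI mouse of day 7 (0.99, adjusted p = 0.0348). In CR2-Crry TBI 3 members differed between these days (19.1% of all genes passed and 6.89% were higher). Lgmn fell, at -0.40 ± 0.057 (adjusted p = 3.83e-05), while Ctsf rose by 0.18 ± 0.048 (adjusted p = 0.0101) and Ctss by 0.38 ± 0.13 (adjusted p = 0.047). The Ctss call was lost on leaving out any 1 of the 6 mice (adjusted p = 0.0503 to 0.132), and that of Ctsf without the third day 3 mouse (adjusted p = 0.0507). In CR2-Crry TBI, Lamp1 passed without the third mouse of day 3 (0.18, adjusted p = 0.0397) and Ctse without the third mouse of day 7 (0.99, adjusted p = 0.0428). With median-centring, which shifted all changes by 0.084 in CR2-Crry TBI and -0.127 in PBS TBI, 5 members were higher and 1 (Lgmn) lower in CR2-Crry TBI and 4 higher and 1 (Lgmn) lower in PBS TBI. Over all genes the split of higher and lower calls was then 89 and 69 in CR2-Crry TBI (51 and 90 without centring) and 66 and 106 in PBS TBI (137 and 49).

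On day 28 the members other than Ctse were lower than on day 7. In PBS TBI 7 members were lower (45.1% of all genes passed and 39.1% were lower), by log2 changes that ran from -1.64 ± 0.11 (adjusted p = 3.5e-09) for Grn to -0.19 ± 0.048 (adjusted p = 0.00251) for Ctsf, the last of which turned to 0.19 after median-centring. In CR2-Crry TBI 7 were lower (25% passed and 22.3% were lower), again from -1.21 ± 0.11 (adjusted p = 1.14e-06) for Grn to -0.22 ± 0.048 (adjusted p = 0.00191) for Ctsf, which was at 0.0076 after centring. Ctse did not follow, at 0.50 ± 0.30 (adjusted p = 0.249) in CR2-Crry TBI and 0.25 ± 0.30 (adjusted p = 0.536) in PBS TBI. With median-centring, which shifted all changes by 0.232 in CR2-Crry TBI and 0.389 in PBS TBI, 1 member was higher and 4 lower in either treatment. The higher one was Ctse in CR2-Crry TBI (0.73, adjusted p = 0.0462) and Ctsf in PBS TBI (adjusted p = 0.00891). The calls of Lamp1 and Lamp2 were lost with centring in both treatments (-0.11 to -0.080, adjusted p = 0.0835 to 0.170). Over all genes 255 were then higher and 76 lower in CR2-Crry TBI (20 and 165 without centring) and 346 and 125 in PBS TBI (45 and 289). Expressed as a share of the day 7 increase of the mean over sham, 28.4% of the Grn increase was present on day 28 in CR2-Crry TBI and 18.3% in PBS TBI. For Ctss these shares were 59.7% and 43.8%, and for Lgmn 41.3% and 25.9%. The day 7 increase they divide by was smaller in CR2-Crry TBI, at 75.9%, 76.3% and 74.1% of that in PBS TBI for Grn, Ctss and Lgmn. None of these members passed between the treatments on day 28 itself, and the shares were not tested.

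On day 28 compared with day 3, Lgmn, Grn, Man2b1, Lamp1 and Lamp2 were lower and Ctse higher in both treatments. In CR2-Crry TBI, where 43.6% of all genes passed and 33.1% were lower, the changes were -1.14 ± 0.11 (adjusted p = 1.55e-07) for Grn, -0.98 ± 0.057 (adjusted p = 3.54e-10) for Lgmn and 1.34 ± 0.30 (adjusted p = 0.00145) for Ctse. In PBS TBI, where 44.9% passed and 31.2% were lower, they were -1.06 ± 0.11 (adjusted p = 4.17e-07), -0.95 ± 0.057 (adjusted p = 5.17e-10) and 1.05 ± 0.30 (adjusted p = 0.00776). Lamp1, Lamp2 and Man2b1 were lower by 0.18 to 0.34 on the log2 scale. After centring Lamp1 (0.14 in CR2-Crry TBI and 0.083 in PBS TBI) and Man2b1 (0.036 and 0.026) turned positive. The Lamp2 calls were then lost, at -0.027 in CR2-Crry TBI (adjusted p = 0.665) and -0.030 in PBS TBI (adjusted p = 0.615). In single omissions the Lamp1 call was lost in CR2-Crry TBI without the third day 3 mouse (adjusted p = 0.0594) or the second day 28 mouse (0.0734), and in PBS TBI the calls of Lamp1 (0.0711) and Man2b1 (0.0549) were lost without the first day 28 mouse and that of Man2b1 without the third (0.0627). Ctss at -0.21 ± 0.13 (adjusted p = 0.208) in CR2-Crry TBI and -0.23 ± 0.13 (adjusted p = 0.156) in PBS TBI did not pass, and after centring was at 0.10 and 0.028. Ctsf at -0.045 ± 0.048 (adjusted p = 0.486) and -0.058 ± 0.048 (adjusted p = 0.336) did not pass either, but after centring it turned to 0.27 (adjusted p = 0.000817) and 0.20 (adjusted p = 0.00726), past the threshold as higher on day 28 in both treatments. After centring Lamp1 passed as higher in CR2-Crry TBI too (adjusted p = 0.0278). Ctss passed in PBS TBI without the second mouse of day 28 (-0.36, adjusted p = 0.0411). With median-centring, which shifted all changes by 0.316 in CR2-Crry TBI and 0.261 in PBS TBI, 3 members were higher and 2 lower in CR2-Crry TBI and 2 and 2 in PBS TBI, and over all genes 344 were higher and 104 lower in CR2-Crry TBI (78 and 245 without centring) and 298 and 127 in PBS TBI (101 and 231). Ordered by group mean, sham was lowest for all 8 members. For 7 of them it did not overlap the next group, and the Ctse values of sham overlapped those of both day 3 groups. The share of all tested genes for which sham lay apart in this way was not counted.

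The treatment comparison asks whether complement inhibition changed these transcripts on the same day after injury. On day 7, Lgmn and Man2b1 were lower in CR2-Crry TBI than in PBS TBI, 2 of 8 members, where 7.43% of all tested genes passed and 7.16% were lower. Lgmn had 5239.5, 5286 and 5329 normalized counts in CR2-Crry TBI, against 6624, 6217 and 6111 in PBS TBI, a log2 change of -0.26 ± 0.057 (adjusted p = 0.0218). Man2b1 had 1442, 1405 and 1479 in CR2-Crry TBI, against 1790.3, 1864 and 1612 in PBS TBI, a change of -0.28 ± 0.071 (adjusted p = 0.0314). In both, the mice of the 2 groups did not overlap. Neither call was stable to leaving out 1 mouse. Lgmn was lost on leaving out the first or second PBS TBI mouse or any CR2-Crry TBI mouse of day 7 (adjusted p = 0.0507 to 0.0883), and Man2b1 on leaving out any of the same 5 (adjusted p = 0.0587 to 0.131), while the log2 changes stayed between -0.30 and -0.22. Without the third PBS TBI mouse Lamp2 passed too (-0.21, adjusted p = 0.0165). After median-centring, which moved all changes of this comparison up by 0.168, they were -0.089 (adjusted p = 0.142) and -0.11 (adjusted p = 0.198).

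Of the others, 4 members had all 3 CR2-Crry TBI mice of day 7 below all 3 PBS TBI mice without passing the adjusted threshold. These were Ctss at -0.32 ± 0.13 (adjusted p = 0.125), Grn at -0.32 ± 0.11 (adjusted p = 0.0787), Lamp2 at -0.16 ± 0.053 (adjusted p = 0.0744) and Lamp1 at -0.14 ± 0.053 (adjusted p = 0.0978), the last 2 of which were at 0.0097 and 0.024 after median-centring. The share of all genes whose groups were separated in this way was not counted, and the median change over all genes was -0.106. With Lgmn and Man2b1 added to these 4 members, 6 of 8 members had an unadjusted p under 0.05, as did 211 of the 740 genes. The increase of the mean over sham in CR2-Crry TBI was 72.6% to 79.5% of that in PBS TBI for these 6 members, and 68.3% to 83.7% on leaving out single mice. Ctsf at 0.03 ± 0.048 (adjusted p = 0.684) and Ctse at -0.061 ± 0.30 (adjusted p = 0.916) overlapped between the groups, and Ctse was at 0.11 after centring. The interval of the Ctsf difference was -0.07 to 0.13 and that of Ctse -0.68 to 0.56, the widest of the 8. After median-centring Ctsf was higher in CR2-Crry TBI, at 0.20 (adjusted p = 0.0439), and was then the 1 member called. Over all genes the day 7 split was 63 higher and 24 lower with that centring, and 2 higher and 53 lower without it.

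Markers also differed between the treatments on day 7. Of 10 microglial markers, 3 were lower in CR2-Crry TBI (Olfml3 at -0.39 ± 0.098 (adjusted p = 0.0327), Fcrls at -0.48 ± 0.14 (adjusted p = 0.0463) and Cx3cr1 at -0.34 ± 0.098 (adjusted p = 0.0445)), with a median over the 10 of -0.305. Of 4 monocyte and macrophage markers, Msr1 was lower, at -0.89 ± 0.21 (adjusted p = 0.0225). Ttr, the 1 tested choroid plexus marker, had 2084 to 2431 normalized counts in CR2-Crry TBI and 308 to 1547 in PBS TBI, and was higher in CR2-Crry TBI at 1.52 ± 0.36 (adjusted p = 0.027). Oligodendrocyte markers had a median of 0.20 and 0 of 5 passed. After median-centring 0 of 10 microglial markers passed, 3 of 5 oligodendrocyte markers and 2 of 11 neuronal markers were higher in CR2-Crry TBI, 1 of 4 monocyte and macrophage markers was still lower, and Ttr was still higher. The part of these differences in the members' values was not tested.

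**Figure D3:**
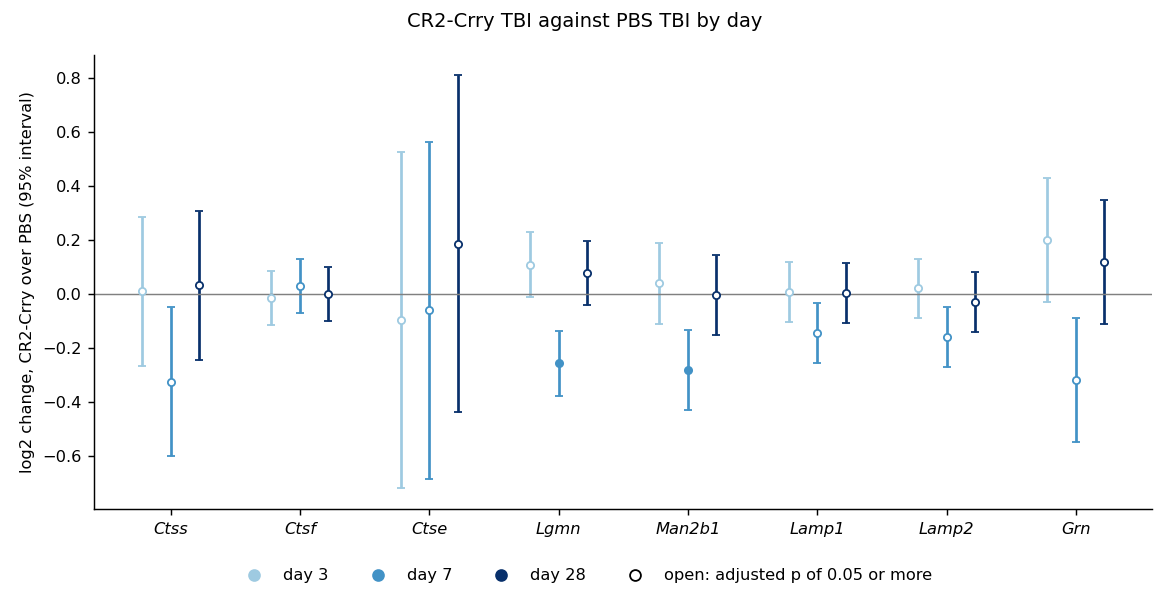
Log2 change of CR2-Crry TBI over PBS TBI (y axis) for each member on days 3, 7 and 28, 3 mice against 3; bars are 95% intervals of the limma fit and filled points had an adjusted p under 0.05. Lgmn and Man2b1 on day 7 are the 2 filled points, the day 7 intervals of Ctss, Lamp1, Lamp2 and Grn also lie below 0, and after median-centring the day 7 points of Lamp1 and Lamp2 lie slightly above 0.

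On days 3 and 28, 0 of 8 members differed between CR2-Crry TBI and PBS TBI. On day 3, 0% of all tested genes passed and 27 of 740 had an unadjusted p under 0.05, of which 0 were members. On day 28 the values were 0%, 15 and 0. Grn and Lgmn showed the largest differences upward on day 3, at 0.20 ± 0.11 (adjusted p = 0.999) and 0.11 ± 0.057 (adjusted p = 0.999), with intervals of -0.03 to 0.43 and -0.01 to 0.23. For Grn the groups overlapped through the third PBS TBI mouse, since the lowest CR2-Crry TBI mouse had 3211 and that PBS TBI mouse had 3299.7. On day 28 the intervals of the 7 members other than Ctse lay between -0.24 and 0.35, and that of Ctse was -0.44 to 0.81. These intervals bound the differences and do not show that the treatments acted alike.

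Whether the treatment difference itself changed between days was tested by interaction terms, and 0 members passed for any pair of days (0% of all genes for day 7 against day 3, 0% for day 28 against day 7 and 0% for day 28 against day 3). The lowest adjusted p on day 7 against day 3 was that of Lgmn, with a difference of -0.37 ± 0.08 (adjusted p = 0.135), and Grn was at -0.52 ± 0.15 (adjusted p = 0.175). With Man2b1 and Lamp2, 4 members had an unadjusted p under 0.05 there, among 124 of the 740 genes. For day 28 against day 7 there were 3 such members (Lgmn at 0.34 ± 0.08 (adjusted p = 0.114), Grn at 0.44 ± 0.15 (adjusted p = 0.153) and Man2b1 at 0.28 ± 0.10 (adjusted p = 0.154)) among 144 genes. That count depended on single day 28 mice. Without the second CR2-Crry TBI mouse of day 28, which had the lowest Ctss, Lgmn, Man2b1 and Grn of its group, 4 members passed (Lgmn, Grn, Man2b1 and Ctss, adjusted p = 0.00637 to 0.0335), and without the second PBS TBI mouse of day 28, Lgmn and Man2b1 passed (adjusted p = 0.0211 and 0.0475). How many of all genes passed on these omissions was not counted, so the member counts have no background beside them. Median-centring moved these differences by 0.211 for day 7 against day 3, where Lamp1 and Lamp2 turned from -0.15 and -0.18 to 0.06 and 0.032, and by -0.157 for day 28 against day 7, where they turned from 0.15 and 0.13 to -0.0078 and -0.028, none of these passing on either scale. For day 28 against day 3, 0 members and 25 genes had an unadjusted p under 0.05.

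Ratios of 2 members within a mouse do not depend on how the sample was scaled, although a ratio can be set only against the same ratio in other mice, since each probe counts with its own efficiency. Lgmn over Ctss was 1.28 to 1.33 on day 3, 0.739 to 0.768 on day 7 and 0.698 to 0.899 on day 28 in CR2-Crry TBI. In PBS TBI it was 1.14 to 1.37, 0.679 to 0.754 and 0.669 to 0.782, and in sham 1.52 to 2. The sham mice, the 6 mice of day 3 and the 12 mice of the later days occupied 3 ranges that did not overlap, and the treatments overlapped on day 3, day 7 and day 28. Grn over Ctss behaved otherwise. It was 0.613 to 0.643, 0.5 to 0.51 and 0.316 to 0.356 in CR2-Crry TBI, 0.482 to 0.673, 0.454 to 0.549 and 0.304 to 0.325 in PBS TBI and 0.532 to 0.621 in sham. The 6 mice of day 28 lay below all others. Lamp2 over Lamp1 was 0.47 to 0.487, 0.421 to 0.441 and 0.42 to 0.43 in CR2-Crry TBI, 0.462 to 0.483, 0.418 to 0.446 and 0.426 to 0.443 in PBS TBI and 0.409 to 0.446 in sham, so that the mice of day 3 lay above all others. Ctsf over Lamp1 was 0.173 to 0.184 in CR2-Crry TBI and 0.157 to 0.16 in PBS TBI on day 7, with no overlap, and 0.2 to 0.225 in sham. On day 3 it was 0.162 to 0.186 in CR2-Crry TBI and 0.165 to 0.19 in PBS TBI, and on day 28 0.178 to 0.206 and 0.183 to 0.2, overlapping on both days. On day 7 Ctss, Grn and Man2b1 over Lamp1 were lower in CR2-Crry TBI with no overlap. Ctss over Lamp1 was 0.627 to 0.631 in CR2-Crry TBI and 0.688 to 0.748 in PBS TBI, Grn over Lamp1 was 0.315 to 0.32 and 0.34 to 0.387, and Man2b1 over Lamp1 was 0.129 to 0.132 and 0.137 to 0.152. The ratios were chosen with these data in view and were not tested.

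**Figure D4:**
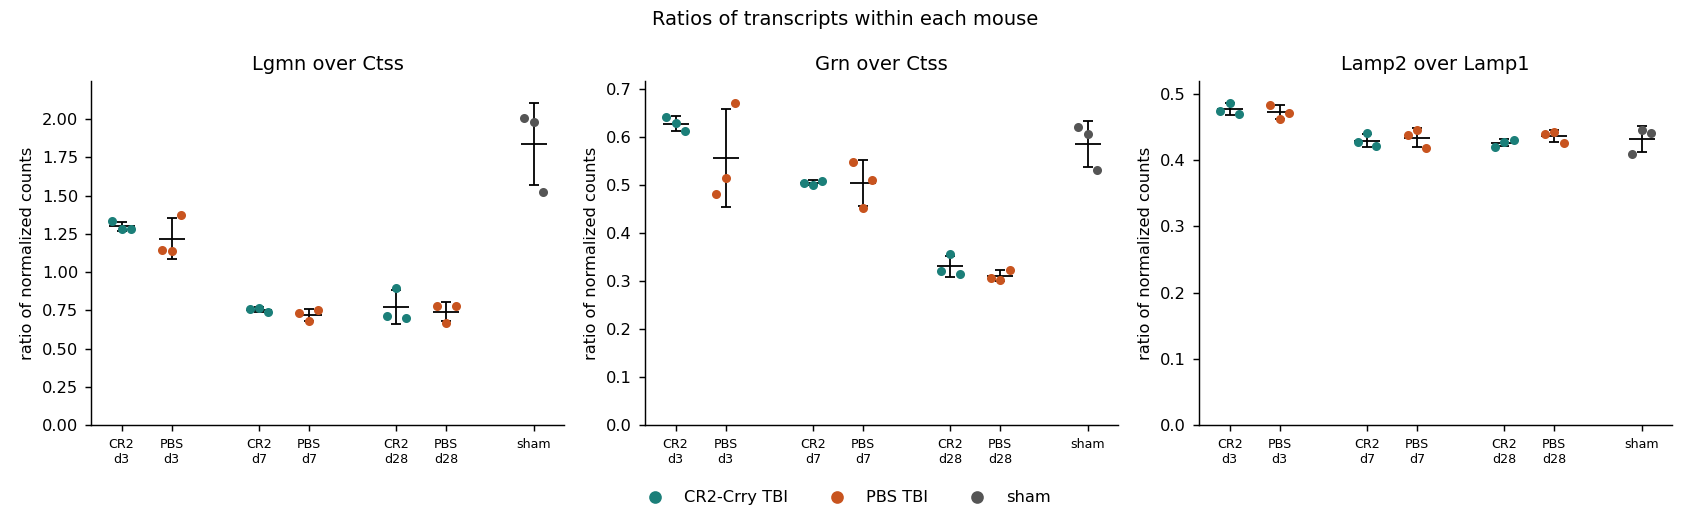
Ratio of the normalized counts of 2 members within each mouse (y axis, from 0) in 7 groups of 3 mice (CR2 = CR2-Crry TBI, PBS = PBS TBI, d = day); points are mice, lines group means and bars the SD. Lgmn over Ctss is highest in sham, lower on day 3 and lowest on days 7 and 28, Grn over Ctss is lowest on day 28, and Lamp2 over Lamp1 is highest on day 3.

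The panel held few other lysosomal genes by name. Of 62 listed, 5 were found and tested, namely Ifi30, Tcirg1, Cln3, Ctsw and Igf2r. On day 3, day 7 and day 28, 5, 3 and 4 of them were higher than in sham in CR2-Crry TBI, and 4, 5 and 4 in PBS TBI, with 0 lower on this scale. The highest in all 6 comparisons was Ifi30, the thiol reductase of the lysosome that opens disulfide bonds of antigens, with log2 changes of 2.93 ± 0.14 (adjusted p = 3.79e-12) in CR2-Crry TBI and 3.00 ± 0.14 (adjusted p = 3.44e-12) in PBS TBI on day 3. Its range on day 7 was 450.4 to 489.6 normalized counts in CR2-Crry TBI and 725 to 923 in PBS TBI, against 122 to 145 in sham. The lowest in every comparison was Igf2r, the cation-independent mannose 6-phosphate receptor that carries enzymes to the lysosome, at 0.13 ± 0.062 (adjusted p = 0.0853) in CR2-Crry TBI and 0.22 ± 0.062 (adjusted p = 0.004) in PBS TBI on day 7, and after median-centring it was lower than in sham in all 6 comparisons. Between the treatments on day 7, Ifi30 (-0.83 ± 0.14 (adjusted p = 0.0111)), Tcirg1 (-0.36 ± 0.099 (adjusted p = 0.0366)), a subunit of the proton pump that acidifies the organelle, and Cln3 (-0.27 ± 0.077 (adjusted p = 0.0422)), a lysosomal membrane protein, were lower in CR2-Crry TBI, with Ifi30 alone passing after centring. The median of the 5 was -0.365, beside -0.11 over all genes.

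The panel held few genes that are linked to cathepsin S. Cst7, which encodes cystatin F, an inhibitor of lysosomal cysteine proteases, was the 1 cathepsin inhibitor of 7 listed with a named probe. It had 56.6 to 68.4 normalized counts in CR2-Crry TBI on day 7 and 91.8 to 139.6 in PBS TBI, against 11.7 to 16.6 in sham. The log2 changes against sham on days 3, 7 and 28 were 0.64 ± 0.25 (adjusted p = 0.0309), 2.16 ± 0.25 (adjusted p = 3.92e-07) and 1.92 ± 0.25 (adjusted p = 2.99e-06) in CR2-Crry TBI and 0.99 ± 0.25 (adjusted p = 0.00188), 2.94 ± 0.25 (adjusted p = 3.72e-09) and 2.10 ± 0.25 (adjusted p = 1.16e-06) in PBS TBI, and the difference between the treatments on day 7 was -0.78 ± 0.25 (adjusted p = 0.0637). After median-centring the Cst7 calls of day 3 were lost in both treatments, while those of days 7 and 28 held. Cd74 encodes the invariant chain that cathepsin S trims, and was the 1 gene of 10 in the MHC class II list with a named probe. It had 616 to 758 normalized counts in CR2-Crry TBI on day 7 and 968 to 1751 in PBS TBI, against 200.5 to 223.5 in sham, and was lower in CR2-Crry TBI at -0.88 ± 0.24 (adjusted p = 0.0368).

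Autophagy genes, whose products form the vesicles that deliver cargo to lysosomes, had medians near 0 against sham on this scale. Of 39 listed, 17 were on the panel and 16 were tested. On days 3, 7 and 28, 3, 3 and 3 were higher and 5, 3 and 3 lower than in sham in CR2-Crry TBI, and 3, 5 and 3 were higher and 6, 3 and 1 lower in PBS TBI. The medians were between -0.055 and 0.028 on the log2 scale in all 6 comparisons, where those of the members were 0.64 to 1.22, and after median-centring 15 or 16 of the 16 were lower in each. In CR2-Crry TBI on day 7 the highest was Pink1, a kinase of mitophagy, at 0.18 ± 0.033 (adjusted p = 8.89e-05), and the lowest Atg9a, a membrane carrier, at -0.16 ± 0.038 (adjusted p = 0.00118). In PBS TBI on day 7 the highest was Atg7, an enzyme of conjugation, at 0.25 ± 0.065 (adjusted p = 0.00234), and the lowest Bnip3, a mitophagy receptor, at -0.24 ± 0.038 (adjusted p = 1.19e-05). Between the treatments, Bnip3 alone passed, on day 7, at 0.14 ± 0.038 (adjusted p = 0.0387), whereas after median-centring 10 of the 16 were higher in CR2-Crry TBI on that day.

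The genes whose pattern was most like that of each member were ranked by Pearson's r of log2 values over all 21 samples among 679 other named tested genes. The samples share their groups and their scaling, so r reflects differences between groups as well as between mice. For Ctss these were Trem2 (0.993), a receptor of microglia, C1qa (0.991), a subunit of the complement protein C1q, and Irf8 (0.989), for Grn Csf1r (0.981), the receptor that sustains microglia, Fcgr1 (0.980) and Inpp5d (0.979), and for Lamp2 Csf1r (0.993), Tcirg1 (0.987) and Fcgr1 (0.986). Those of Lgmn were Cotl1 (0.991), Olfml3 (0.990) and Ifi30 (0.982), and those of Man2b1 were Psmb8 (0.986), Irf8 (0.975) and C1qc (0.975). These r stayed at 0.79 or more when samples were centred on their medians. Lamp1 was nearest to Ddx58 (0.983), Psmb8 (0.982) and Cd72 (0.978), with 0.44 to 0.71 after centring. Ctsf was nearest to Cxcl10 (0.951), Ddx58 (0.938) and Gbp2 (0.930), which fell to between -0.33 and -0.32 after centring. Its likeness to these genes thus held on the authors' scale and not after centring, and the reason was not tested. Ctse stood apart, with Itgax (0.840), Cst7 (0.775) and Myorg (0.773) nearest, and its r with the other 7 members ran from -0.096 with Lgmn to 0.43 with Ctsf. Among those 7, r ran from 0.75 between Ctsf and Lgmn to 0.98 between Man2b1 and Lamp1. After centring the r of these pairs was -0.83 and 0.68, and it ran from -0.83 to 0.93 over all pairs of the 7, with Ctsf negative with 5 of the other 6 members and Lgmn at -0.052 with Lamp1.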

How the data were processed

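RNA of the injured hemisphere of 21 mice was hybridized to the nCounter Mouse Neuroinflammation panel. By the study's methods the authors applied a background threshold and scaled each sample to housekeeping genes in nSolver before deposit, so the deposited signal is a normalized count per probe and not a raw count. No floor of tied values was seen, since the lowest value of a sample was 2 to 8 counted units and occurred 1 to 3 times, so the threshold left no visible mark. Versions of that software are not given in the sources used here. Low values of a sample were whole multiples of 1 step (at least 99.87% within 0.0075), which gave relative depths of 750585 to 1023041 counted units. Of 757 probes, 703 had 1 gene symbol in the platform table and 54 had none. Groups follow the sample labels. Probes with a value above 20 in at least 3 of 21 samples (740) were tested as log2 values, with no pseudocount, by limma (version 3.58.1, R 4.3.3) with 1 mean per group over all samples and a trended prior. Within each comparison the Benjamini-Hochberg adjustment ran over the 740 probes, with a threshold of 0.05, and ± marks the SE of a log2 change. The fit was tested on simulated data. Python 3.11.15, pandas 2.3.3, scipy 1.17.1, numpy 2.4.6 and matplotlib 3.10.9 were used for the rest. Members and gene lists were chosen with earlier results of these data known. Genes named were the members, the highest and lowest of each list, every gene of a list that passed between treatments, and the 3 genes with the highest Pearson's r to each member. Alternatives covered the moderation, the samples fitted, weights, the methods' t-test and adjustment, a pseudocount of 20, filters (none, or a mean of at least 50), centring, a replicate block and single omissions. The t-test was a Welch test on log2 values, adjusted over all 740 probes. The adjustment over p-values under 0.05, which the methods used between injured groups, was applied to limma p-values alone. It returns only values under 0.05, so it calls every gene whose unadjusted p is under 0.05. The t-test and that adjustment were not combined, so the methods' own procedure between injured groups was not run. A voom fit on counted units and a sham of the same age were added after the data were seen. Protein sequences were not used here.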

Additional observations from a re-analysis of the deposited data

How the results depend on the processing

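Of the 18 counts of members past the threshold, the voom fit on counted units, the pseudocount of 20, the absence of a filter, the filter on a mean of at least 50 and the sham mouse of the same age left every count they gave within 1.5 times. The difference between CR2-Crry TBI and PBS TBI on day 7 (2 members) moved most. It was 1 member without the trend, 1 with the replicate block, 1 with median-centring, 4 when fitted on its groups alone and 6 with sample weights. It was 6 when limma p-values were adjusted only over those under 0.05, the adjustment of the methods. That adjustment calls every gene with an unadjusted p under 0.05, so its counts add nothing to the unadjusted ones. By the methods' t-test, adjusted here over all genes, it was 0, and it ran from 0 to 3 on leaving out single mice. Calls over all genes were not counted for the single omissions. For CR2-Crry TBI on day 7 against day 3 (3 members) the count was 6 with centring, 5 on its groups alone, 6 with weights, 6 with the methods' adjustment and 0 by the methods' t-test. That t-test also gave 0 for PBS TBI on day 7 against day 3, 2 for PBS TBI and 1 for CR2-Crry TBI on day 28 against day 3, and 0 for CR2-Crry TBI on day 28 against day 7. Centring gave 5 members for both day 28 comparisons with sham. The change of the treatment effect between days 7 and 3 gave 2 members on its groups alone, 1 with weights and 4 with the methods' adjustment, and that between days 28 and 7 gave 3 with weights, 3 with the methods' adjustment and 0 to 4 on leaving out single mice.

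Directions turned under centring alone. Ctsf against sham was then -0.34, -0.074 and -0.067 in CR2-Crry TBI on days 3, 7 and 28 and -0.28, -0.27 and -0.077 in PBS TBI. Ctsf on day 28 was 0.0076 against day 7 and 0.27 against day 3 in CR2-Crry TBI, and 0.195 and 0.20 in PBS TBI. Lamp1 on day 3 against sham was -0.039 in CR2-Crry TBI and -0.0032 in PBS TBI, and on day 28 against day 3 it was 0.14 and 0.083. Man2b1 on day 28 against day 3 was 0.036 and 0.026. Ctse gave no value with the mean of at least 50, and lost its day 7 and day 28 calls against sham by the methods' t-test (adjusted p = 0.0679 to 0.137).

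Over all genes the methods' t-test called 0 genes between treatments on day 7 (55 by the limma fit), 172 for CR2-Crry TBI and 229 for PBS TBI on day 28 against sham (404 and 389), and 11, 1 and 17 between days in CR2-Crry TBI (141, 185 and 323) and 1, 131 and 114 in PBS TBI (186, 334 and 332). These t-test counts were adjusted over all genes. They do not show what the methods' own adjustment would call between injured groups. Other counts between treatments on day 7 were 20 without the trend, 84 on its groups alone, 141 with weights, 211 with the methods' adjustment, 87 with centring, 20 with the block and 85 with voom. The methods' adjustment gave 27 genes on day 3 and 15 on day 28 between treatments, where the limma fit gave 0 and 0. It gave 226 for CR2-Crry TBI on day 7 against day 3, where the limma fit gave 141. For the changes of effect it gave 124, 144 and 25, where the limma fit gave 0, 0 and 0. Each of these counts, like the 211, is the number of genes with an unadjusted p under 0.05. The fit on its groups alone gave 1 gene between treatments on day 3 and 21 for the effect between days 7 and 3, weights gave 2 for the effect between days 7 and 3 and 78 for that between days 28 and 7, centring gave 331 for CR2-Crry TBI on day 28 against day 7, and the sham mouse of the same age gave 258 for PBS TBI on day 28.

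Replicate numbers did not pair the samples. Over 63 pairs of same-numbered samples the median correlation of deviations was -0.0031 (-0.405 to 0.229), and 3 of 21 samples correlated best with their own number. The replicate block ended 3 calls of members, Man2b1 between treatments on day 7 (adjusted p = 0.0538), Ctsf in PBS TBI on day 7 against day 3 (0.0619) and Ctss in CR2-Crry TBI on day 7 against day 3 (0.0651), and no other. The edgeR fit and the t-test for changes of effect were not run. With 3 mice per group and at most 58 counted units for Ctse, small differences could not be seen.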
